A study of Mus musculus with 4 samples.

Results

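The genes described here are 10 genes characteristic of mast cells, among the 15298 genes measured in peritoneal macrophages of mice after microcurrent stimulation (MCS). They comprise 5 granule proteases (Cpa3, Cma1, Mcpt4, Tpsb2 and Tpsab1) and, set against them, the 2 subunits of the IgE receptor that mark the cell (Fcer1a and Ms4a2), the growth factor receptor Kit and the transcription factor Gata2, with the histamine enzyme Hdc given on its own. The members were chosen from a list of known mast cell genes after mast cell genes had been seen to differ between MCS and control in these same 4 libraries. The differences between libraries below are therefore a description, and no support is drawn from the count test reported on them. All 10 were in the table and all 10 passed the minimum level of a log2 mean level above 0 in every comparison.

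MCS is a weak pulsed current passed between pads on the abdomen and the back. The donors were female mice of the BALB/c strain aged 6 weeks, and their cells were sorted by flow cytometry as CD11b+ F4/80+ Ly6G- cells, 1 library for each of 4 conditions. MCS mice received 300 µA at 400 Hz for 15 min under isoflurane at ZT2, where ZT counts hours from lights on, and controls were handled alike, pads included, without current. The ZT2 cells were taken at the end of the session and the ZT14 cells 12 h later. Libraries were made from total RNA after depletion of ribosomal RNA with a strand-marking kit, and the sources used here do not say how many mice stand behind each library. The libraries held 8658191 reads (control at ZT2), 9217493 (control at ZT14), 8365590 (MCS at ZT2) and 9953243 (MCS at ZT14). Levels are CPM, the reads of a gene scaled to a common library size, on which 1 read was worth 0.115, 0.110, 0.116 and 0.102 CPM in the same order. With 1 library per condition no difference has a replicate check, and the 95% intervals given cover counting error only.

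Mast cells are tissue-resident cells that store proteases, histamine and heparin in granules and release them when an antigen cross-links IgE on their surface receptor. They depend on stem cell factor acting through Kit, and Gata2 is needed for their development and for the transcription of several of their granule and receptor genes. Those of connective tissues and the peritoneal cavity carry chymases, tryptases and carboxypeptidase A3 together.

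Because GATA factors bind short sites in the promoters of mast cell genes, the sequence just before the start of transcription is shown for 5 members that hold such a site there and for Gata2 itself, which does not. RefSeq promoters (build GRCm38.p6, the build of mm10) were found for 8 of the 10 members, all but Tpsb2 and Tpsab1. The hexamers searched, on both strands of the 250 bases before each start, were AGATAA and its variant TGATAA, together with the forms that end in G, which are AGATAG and likewise TGATAG. Of the 8 members, 6 had at least 1 such hexamer, and Kit and Gata2 had none. Among all 27025 genes with a promoter sequence, 29.7% had one. The 120 bases before the start are given 5′ to 3′ on the gene's strand, with the hexamers in capitals. They lie at chr3:20242182-20242301, chr14:55944676-55944795, chr14:56062311-56062430, chr1:173227230-173227349 and chr19:11623720-11623839, all on the minus strand, and for Gata2 at chr6:88193771-88193890 on the plus strand. Another Gata2 start, with its stretch at chr6:88198544-88198663, also had no such hexamer and is not shown.
Cpa3: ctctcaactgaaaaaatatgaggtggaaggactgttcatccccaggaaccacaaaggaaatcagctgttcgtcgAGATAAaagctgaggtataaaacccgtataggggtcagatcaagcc
Cma1: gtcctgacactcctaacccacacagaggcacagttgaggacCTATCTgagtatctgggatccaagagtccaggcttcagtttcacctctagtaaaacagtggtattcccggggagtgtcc
Mcpt4: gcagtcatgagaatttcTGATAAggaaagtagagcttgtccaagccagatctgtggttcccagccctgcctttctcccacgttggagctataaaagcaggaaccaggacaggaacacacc
Fcer1a: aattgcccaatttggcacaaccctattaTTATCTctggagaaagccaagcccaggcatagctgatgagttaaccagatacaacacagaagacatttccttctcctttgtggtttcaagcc
Ms4a2: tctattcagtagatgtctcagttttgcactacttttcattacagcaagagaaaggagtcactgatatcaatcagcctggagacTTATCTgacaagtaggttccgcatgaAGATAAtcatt
Gata2: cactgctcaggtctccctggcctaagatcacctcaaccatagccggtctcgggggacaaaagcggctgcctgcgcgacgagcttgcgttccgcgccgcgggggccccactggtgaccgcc
The hexamer began 46 bases before the start in Cpa3, 79 in Cma1, 103 in Mcpt4 and 92 in Fcer1a. Ms4a2 had 3 of them, at 224, 37 and 11 bases, of which the last 2 fall in the stretch shown. Hdc had its hexamer farther out, at 221 bases. A match is a run of letters and not a measured binding site.

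Together the 10 genes took 0.199% of all CPM in the control library at ZT2, 0.127% in the control library at ZT14, 0.259% in the MCS library at ZT2 and 0.107% in the MCS library at ZT14. They were thus most abundant in the MCS library at ZT2 and least abundant in the MCS library at ZT14, with the controls between. Relative to its control, the summed level of the 10 genes was higher with MCS at ZT2 (log2 ratio 0.33, interval 0.30 to 0.36) and lower with MCS at ZT14 (log2 ratio -0.24, interval -0.28 to -0.21). In bulk samples, fewer cells of a type and less RNA per cell cannot be told apart, and this holds for every value below.

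The proteases made up most of this signal. Cpa3 encodes carboxypeptidase A3, a metalloprotease of the secretory granule (chr3:20215620-20242181, minus strand). Its level was 462 CPM in the control library at ZT2, 316 CPM in the control library at ZT14, 581 CPM in the MCS library at ZT2 and 225 CPM in the MCS library at ZT14. Cma1 encodes the chymase mMCP-5 (chr14:55941451-55944675, minus strand) and stood at 517, 339, 610 and 304 CPM in the same order of libraries. Both genes were highest in the MCS library at ZT2 and lowest in the MCS library at ZT14. At ZT2 the log2 ratio of MCS to control was 0.33 (interval 0.27 to 0.39) for Cpa3 and 0.24 (interval 0.18 to 0.30) for Cma1. At ZT14 it was -0.49 (interval -0.57 to -0.41) for Cpa3 and -0.16 (interval -0.23 to -0.09) for Cma1. Both intervals excluded no change at each time, and the direction was opposite at ZT2 and ZT14.

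Mcpt4 encodes the chymase mMCP-4 and lies 114953 bases from Cma1 (chr14:56059629-56062313, minus strand). Its levels in the same order were 238, 141, 291 and 97.5 CPM. Tpsb2 encodes the tryptase mMCP-6 (chr17:25366305-25369098, plus strand), with levels of 491, 319, 607 and 265 CPM. Both followed the same order of libraries as Cpa3 and Cma1. The log2 ratio of MCS to control at ZT2 was 0.29 (interval 0.20 to 0.37) for Mcpt4 and 0.31 (interval 0.25 to 0.37) for Tpsb2. At ZT14 it was -0.53 (interval -0.65 to -0.41) for Mcpt4, the lowest among the proteases, and -0.27 (interval -0.34 to -0.19) for Tpsb2.

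Tpsab1, the tryptase gene of mMCP-7, lies 20742 bases from Tpsb2 (chr17:25343245-25345562, minus strand) and went a different way. Its levels were 38.5 CPM in the control library at ZT2, 22.6 CPM in the control library at ZT14, 57.1 CPM in the MCS library at ZT2 and 45.0 CPM in the MCS library at ZT14. It was thus higher with MCS at both times, by a log2 ratio of 0.57 (interval 0.37 to 0.77) at ZT2 and of 0.99 (interval 0.75 to 1.24, a 1.99-fold difference) at ZT14. Of all protease reads, Tpsab1 held 2.20% (Clopper-Pearson interval 1.97 to 2.45) in the control library at ZT2, 1.99% (1.73 to 2.28) in the control library at ZT14, 2.66% (2.43 to 2.90) in the MCS library at ZT2 and 4.81% (4.38 to 5.27) in the MCS library at ZT14. The last of these intervals lay above the other three. The longest run of identical bases shared by Tpsb2 and Tpsab1 transcripts in the annotation was 39 bases, and no 50-base window of either was found in another gene. GENCODE lists Tpsab1 as a protein-coding gene, whereas RefSeq lists it as a transcribed pseudogene in the reference strain, which is not the strain of these mice. How the reads of this gene were assigned was not tested.

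**Figure D1:**
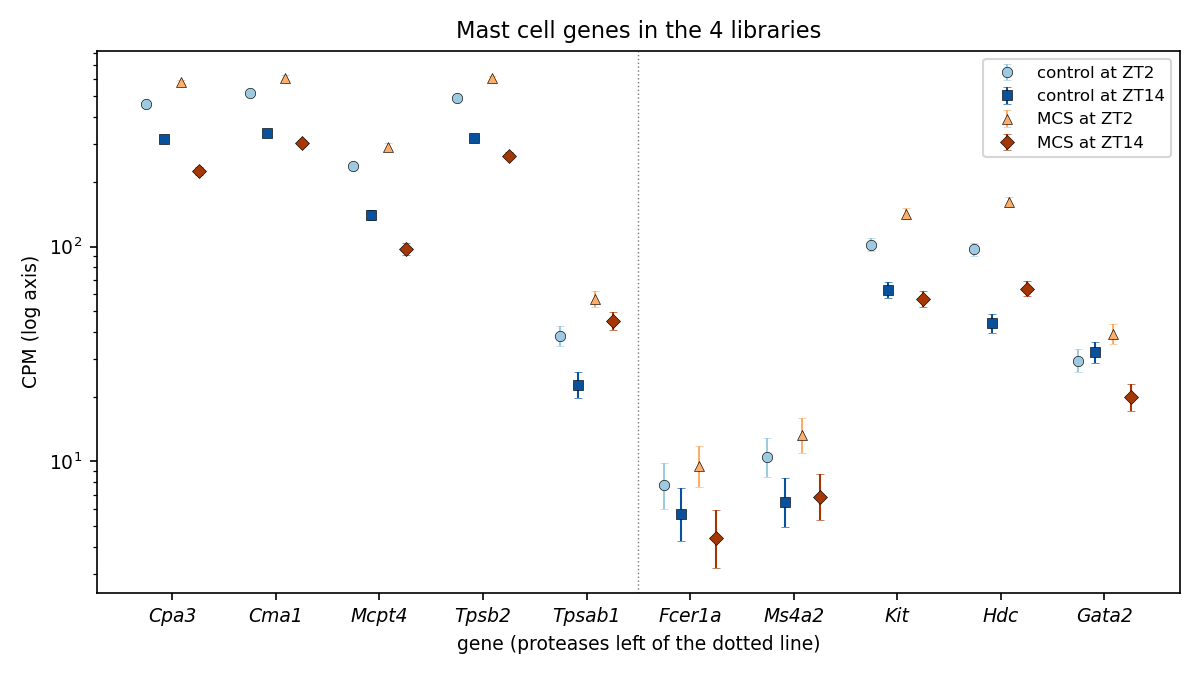
Levels of the 10 mast cell genes in the 4 libraries, as CPM on a log axis. Each point is 1 library with its 95% Poisson interval (counting error only), and the dotted line parts the 5 proteases from the other 5 genes. Cpa3, Cma1, Mcpt4 and Tpsb2 are highest in the MCS library at ZT2 and lowest in the MCS library at ZT14, while Tpsab1 is lowest in the control library at ZT14.

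The IgE receptor genes rested on far fewer reads. Fcer1a, the alpha subunit that binds IgE (chr1:173221284-173227214, minus strand), stood at 7.74, 5.71, 9.51 and 4.40 CPM in the control library at ZT2, the control library at ZT14, the MCS library at ZT2 and the MCS library at ZT14. Ms4a2, the beta subunit that amplifies the receptor's signal (chr19:11615523-11623719, minus strand), stood at 10.5, 6.48, 13.2 and 6.85 CPM. These levels rest on 43 to 82 reads for Fcer1a and 59 to 114 for Ms4a2. The log2 ratio of MCS to control was 0.29 (interval -0.19 to 0.79) for Fcer1a and 0.33 (interval -0.08 to 0.75) for Ms4a2 at ZT2. At ZT14 it was -0.37 (interval -1.0 to 0.23) for Fcer1a and 0.08 (interval -0.45 to 0.61) for Ms4a2. A difference between MCS and control was not detectable at this depth for either subunit taken alone. Summed, the 2 subunits gave a log2 ratio of 0.32 (interval 0.01 to 0.63) at ZT2, which just excluded no change, and -0.12 (interval -0.51 to 0.28) at ZT14. Fcer1g, the gamma chain that the receptor shares with Fc receptors of macrophages, was level at 65.0, 62.1, 64.2 and 64.9 CPM.

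Kit (chr5:75574916-75656722, plus strand) was at 102 CPM in the control library at ZT2, 62.8 CPM in the control library at ZT14, 142 CPM in the MCS library at ZT2 and 56.9 CPM in the MCS library at ZT14. Its order of libraries was that of the 4 main proteases. The log2 ratio of MCS to control was 0.48 (interval 0.35 to 0.60) at ZT2 and -0.14 (interval -0.32 to 0.03) at ZT14, so that only the ZT2 interval excluded no change. Gata2 (chr6:88193891-88207032, plus strand) stood at 29.5, 32.2, 39.2 and 19.8 CPM in the same order of libraries. It was the one member that was not lower in the control library at ZT14 than at ZT2 (log2 ratio of ZT2 to ZT14 -0.13, interval -0.38 to 0.12). With MCS it was higher at ZT2 (log2 ratio 0.41, interval 0.17 to 0.65) and lower at ZT14 (log2 ratio -0.70, interval -0.97 to -0.43), the lowest value of any member.

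Hdc, which encodes the histidine decarboxylase that makes histamine (chr2:126593667-126619299, minus strand), was at 97.2 CPM in the control library at ZT2, 43.9 CPM in the control library at ZT14, 162 CPM in the MCS library at ZT2 and 63.6 CPM in the MCS library at ZT14. Like Tpsab1, and unlike Cpa3, Cma1, Mcpt4, Tpsb2, Kit and Gata2, it was higher with MCS at both times. The log2 ratio was 0.73 (interval 0.61 to 0.86) at ZT2 and 0.53 (interval 0.35 to 0.72) at ZT14. Hdc is also expressed by basophils and, in some states, by neutrophils and other myeloid cells.

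**Figure D2:**
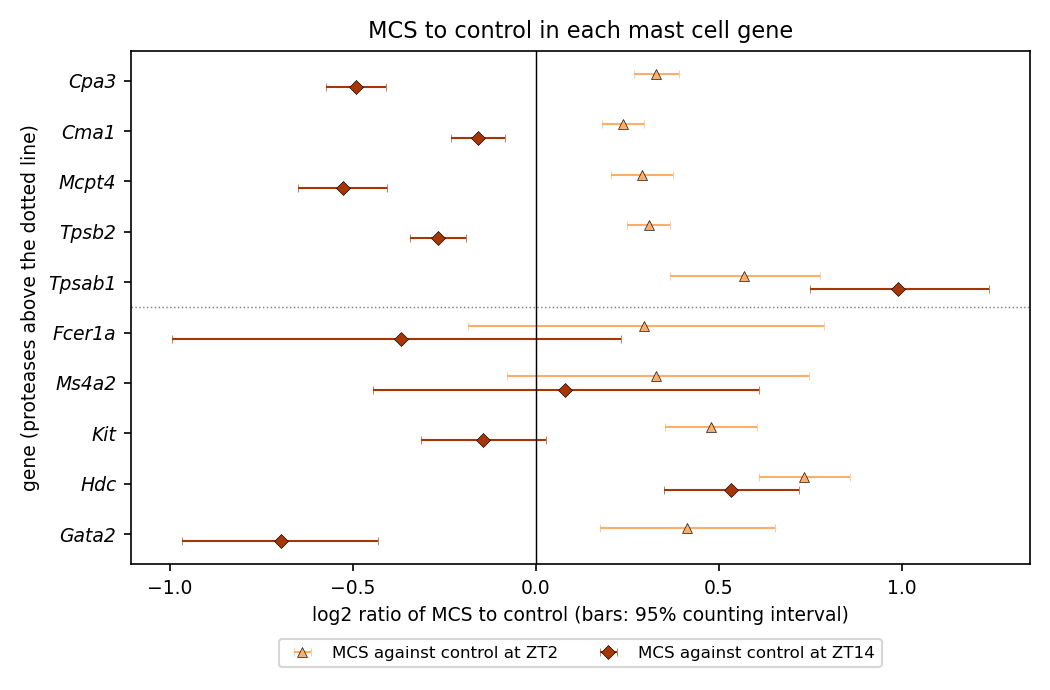
Log2 ratio of MCS to control for each of the 10 mast cell genes at ZT2 (triangles) and ZT14 (diamonds), with 95% intervals of counting error and 1 library per condition. All 10 points at ZT2 lie right of 0, whereas at ZT14 Tpsab1 (0.99), Hdc (0.53) and Ms4a2 (0.08) lie right of it and the other 7 left.

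Counted over the members, no gene passed an absolute log2 ratio of 1 between MCS and control at ZT14, where 3.4% of 12368 genes did, and none at ZT2, where 2.21% of 12612 genes did. By the counting interval, 8 of 10 members were higher with MCS at ZT2 (all but Fcer1a and Ms4a2), where 11.5% of genes were. At ZT14, 5 of 10 members were lower (Cpa3, Cma1, Mcpt4, Tpsb2 and Gata2), where 18.9% of genes were, and 2 were higher (Tpsab1 and Hdc), where 18.7% were. Those 5 lower members were all among the 8 that were higher at ZT2, a combination found in 4.88% of 12236 genes. The median log2 ratio of the members was 0.33 at ZT2 and -0.21 at ZT14, and that of all genes was 0.00 at both times. These members were chosen on the same libraries, so nothing is read from the distance between the shares.

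The comparison of times within each condition uses the same 4 libraries again, so it is not separate from the values above. In the control libraries the median log2 ratio of ZT2 to ZT14 was 0.66 over the members and 0.00 over all genes, with 9 of 10 members higher at ZT2. Hdc alone passed a log2 ratio of 1 (1.14, interval 0.97 to 1.32), as 2.42% of 12465 genes did. In the MCS libraries the members' median was 1.15 against 0.01 over all genes. Here 7 members passed a log2 ratio of 1 (Cpa3, Cma1, Mcpt4, Tpsb2, Fcer1a, Kit and Hdc), as 3.96% of 12534 genes did. With 1 CPM added in place of 0.1, Fcer1a fell short (0.96) and 6 members passed, as 3.26% of genes did. Mcpt4 had the largest ratio (1.58, interval 1.47 to 1.69), followed by Cpa3 (1.37, interval 1.3 to 1.44) and Hdc (1.34, interval 1.21 to 1.48). Tpsab1 had the smallest (0.34, interval 0.15 to 0.53). The order MCS at ZT2, control at ZT2, control at ZT14, MCS at ZT14, from high to low, was shared by 6 members (Cpa3, Cma1, Mcpt4, Tpsb2, Fcer1a and Kit) and by 7.52% of 12511 genes. For Fcer1a, however, no MCS to control interval excluded no change.

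An edgeR quasi-likelihood fit with additive terms for time and MCS over the 4 libraries, which leaves 1 residual degree of freedom, was run on the reads recovered from the table. For MCS it called 24 of 12404 genes (0.193%) at an adjusted p of 0.05, with 0 of the 10 members among them and 2 members at an unadjusted p under 0.05, which 2.45% of genes reached. This fit takes 1 MCS effect for both times, whereas 7 members had ratios of opposite sign at ZT2 and ZT14 and Tpsab1, Hdc and Ms4a2 had ratios of the same sign. For time it called 295 genes (2.38%), among them 6 members (Cpa3, Cma1, Mcpt4, Tpsb2, Kit and Hdc). As the members were chosen on these libraries, no support is drawn from that count.

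Set against each other, the summed proteases and the summed receptor genes had close ratios of MCS to control at ZT14 and differed at ZT2. The summed protease level was 1747 CPM in the control library at ZT2, 1137 CPM in the control library at ZT14, 2146 CPM in the MCS library at ZT2 and 936 CPM in the MCS library at ZT14. The sum of Fcer1a, Ms4a2, Kit and Gata2 was 150, 107, 204 and 87.9 CPM in the same order. MCS against control at ZT14 gave a log2 ratio of -0.28 (interval -0.32 to -0.24) for the proteases and -0.29 (interval -0.42 to -0.15) for the receptor sum. At ZT2 it gave 0.30 (interval 0.27 to 0.33) for the proteases and 0.45 (interval 0.34 to 0.55) for the receptor sum, so that the receptor sum was the higher of both at that time by non-overlapping intervals. The receptor sum is mostly Kit and Gata2, and the closeness at ZT14 depends on both, since it gives -0.51 at ZT14 without Kit and -0.14 without Gata2. At ZT2 it gives 0.38 without Kit, closer to the proteases, and 0.45 without Gata2, which is no closer. The summed level of the IgE receptor subunits alone was 18.2, 12.2, 22.7 and 11.2 CPM, and the interval of its ratio at ZT2 (0.01 to 0.63) held the ratios of the proteases, Kit and Gata2 alike.

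As a share of all reads on the 10 genes, the proteases held 87.6% (Clopper-Pearson interval 87.1 to 88.1) in the control library at ZT2 and 88.3% (87.7 to 88.8) in the control library at ZT14. They held 85.4% (85.0 to 85.9) in the MCS library at ZT2 and 86.1% (85.4 to 86.7) in the MCS library at ZT14. The share was thus about 2 percentage points lower with MCS than in the control of the same time, and the intervals of the MCS libraries did not reach those of the controls. Hdc went the other way: it held 4.88% (4.56 to 5.21) and 3.41% (3.09 to 3.76) in the control libraries at ZT2 and ZT14, and 6.43% (6.11 to 6.77) and 5.85% (5.41 to 6.31) in the MCS libraries. With Hdc left out of the total, an alternative chosen after these values were seen, the proteases held 92.1%, 91.4%, 91.3% and 91.4% in the order control at ZT2, control at ZT14, MCS at ZT2 and MCS at ZT14, and the gap at ZT14 was gone.

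**Figure D3:**
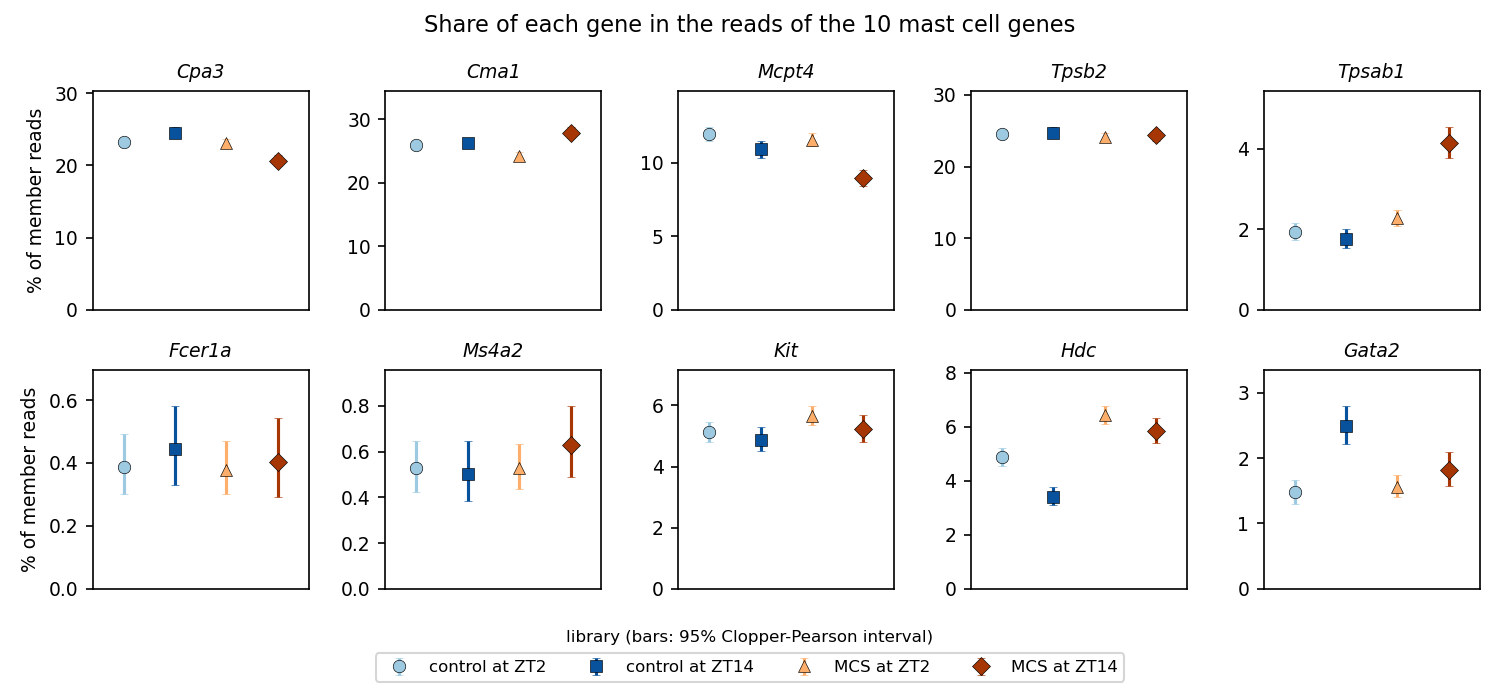
Share of each gene in the reads of the 10 mast cell genes, in percent, for the 4 libraries, with 95% Clopper-Pearson intervals and each panel on its own axis from 0. Tpsb2 keeps a near-constant share of 24.2% to 24.7%, Hdc has a larger share in both MCS libraries, and in the MCS library at ZT14 Mcpt4 and Cpa3 have their smallest share and Tpsab1 its largest.

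Within the set, the makeup shifted most in the MCS library at ZT14. Cpa3 held 20.7% (19.9 to 21.5) of member reads there against 23.1% to 24.5% in the other libraries, and Mcpt4 held 8.97% (8.44 to 9.53) against 10.9% or more. Cma1 held 27.9% (27.1 to 28.8) against 24.3% to 26.3%. Gata2 had its largest share, 2.50% (2.22 to 2.80), in the control library at ZT14. The IgE receptor subunits held 0.905% to 1.03% in all 4 libraries, with intervals that all overlapped. By these counting intervals the shares of some members, proteases among them, differed between libraries. The intervals leave out variation between mice, sorts and sequencing, and whether the members moved as 1 block was not tested.

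Levels can be compared between genes only per length. Divided by the longest coding transcript of each gene, Cma1 led in the control library at ZT2 with 474 CPM per kb, followed by Tpsb2 (381 CPM per kb), Cpa3 (319 CPM per kb) and Mcpt4 (215 CPM per kb). Hdc (40.7 CPM per kb), Tpsab1 (19.9 CPM per kb) and Kit (19.5 CPM per kb) came next. Gata2 (8.25 CPM per kb), Fcer1a (7.75 CPM per kb) and Ms4a2 (4.40 CPM per kb) were lowest. The main proteases thus stood over an order of magnitude above the IgE receptor genes on this scale. By CPM, which is not per length, Cma1 ranked 201 among all genes in the control library at ZT2, 369 in the control library at ZT14, 154 in the MCS library at ZT2 and 427 in the MCS library at ZT14. Of the 50-base windows of the transcripts, 5.38% in Cma1, 5.48% in Mcpt4 and 2.13% in Ms4a2 also occur in another gene (Gm48934, Cma2 or Mcpt9, and Ms4a4b), so the counts of these 3 genes are slightly uncertain.

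Other genes of the mast cell program were taken from lists of the pathway, drawn up with earlier results of these data known. Of 13 granule storage and mediator genes measured, 3 of the 12 above the minimum level passed a log2 ratio of 1 with MCS at ZT2 (Ctsg, Gzmb and Tpsg1, all higher) and 0 of 11 at ZT14, beside 2.21% and 3.4% of all genes. Ctsg is also a neutrophil granule gene, and neutrophil markers summed to 34.3 CPM in the control and 127 CPM in the MCS library at ZT2, whose part in these 3 genes was not tested. The sort took Ly6G- cells, a gate meant to leave neutrophils out. The gene with the highest mean CPM was Srgn, the core protein of granule proteoglycans in many blood cells, at 445, 387, 461 and 419 CPM in the order control at ZT2, control at ZT14, MCS at ZT2 and MCS at ZT14. The next 3 by mean level had other orders of libraries. Serpinb1a, an inhibitor of serine proteases, stood at 167, 108, 139 and 138 CPM, lower with MCS at ZT2 and higher at ZT14. Ndst2, which modifies heparin, stood at 120, 130, 128 and 122 CPM, and Hs6st1, another enzyme of heparan sulfate, at 95.05, 141, 115 and 127 CPM. The next 3 genes were chosen after their values were seen. Slc18a2, which loads histamine and serotonin into granules, stood at 37.0, 28.2, 47.9 and 22.2 CPM, in the same order of libraries as the main proteases. The serotonin transporter gene Slc6a4 stood at 45.3, 21.5, 50.9 and 22.4 CPM, high in both ZT2 libraries and low in both ZT14 libraries. Gzmb was at 2.77, 2.42, 15.1 and 1.64 CPM, and it is also a natural killer and T cell gene.

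On a list of 15 genes, mostly mast cell surface receptors, 0 of 15 passed a log2 ratio of 1 with MCS at ZT2 and 1 of 14 at ZT14. Over all genes, 2.21% did at ZT2 and 3.4% at ZT14. That gene was Rgs13, an intracellular regulator of G protein signalling, at 15 reads in the control and 6 in the MCS library (log2 ratio -1.29), and its interval of -3.08 to 0.02 did not exclude no change. By the counting interval, 8 of the 14 were higher and 1 lower with MCS at ZT14, and 4 of 15 were higher and 1 lower at ZT2. Over all genes the shares were 18.7% higher and 18.9% lower at ZT14, and 11.5% higher and 11% lower at ZT2. The 4 with the highest mean level were all higher with MCS at ZT14: Csf2rb, a shared cytokine receptor chain, at 229 CPM in the control and 290 CPM in the MCS library, the integrin gene Itgb7 at 179 and 217 CPM, the IL-33 receptor gene Il1rl1 at 79.2 and 88.8 CPM, and Cd33 at 66.9 and 82.2 CPM. The 1 lower gene was Mrgprb1, a receptor of the Mas-related family found on mast cells, which stood at 53.4, 45.0, 64.2 and 31.0 CPM over the 4 libraries. Of the genes of IgE receptor signalling (16, led by Syk, Lyn and Inpp5d) none passed a log2 ratio of 1 between MCS and control at either time. Nor did any of the 12 transcription factors, the 9 genes of granule release or the 6 measured genes of lipid mediator synthesis above the minimum level. By the counting interval at ZT14, 2 IgE signalling genes were higher and 5 lower, and 1 transcription factor was higher and 2 lower. In granule release and in lipid synthesis, 4 genes each were higher and 0 lower. At ZT2 the numbers higher and lower were 5 and 1 for IgE signalling and 3 and 0 for transcription factors. They were 2 and 1 for granule release and 0 and 3 for lipid synthesis. The shares of all genes are those given above. Most genes of these lists are also expressed by macrophages. Of the 3 growth factor and cytokine genes measured, Kitl, the ligand of Kit, had the highest mean and stood at 1.85, 1.65, 2.78 and 2.86 CPM.

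The sorted cells carried their macrophage markers. The 12 peritoneal macrophage genes summed to 29925 CPM in the control library at ZT2, 29318 CPM in the control library at ZT14, 28705 CPM in the MCS library at ZT2 and 31316 CPM in the MCS library at ZT14, led by Lyz2 at 17454, 17605, 17344 and 18847 CPM. Adgre1, which encodes F4/80, stood at 1327, 1361, 1086 and 1900 CPM, lowest in the MCS library at ZT2 and highest in the MCS library at ZT14. The summed list, Lyz2, Csf1r, Icam2 and Fcgr1 were also lowest and highest in these libraries, and the other genes of the list were not. Of those, Cd68 stood at 285, 299, 300 and 215 CPM, and Prg4 and Timd4 were also lowest in the MCS library at ZT14. By the counting interval, 9 of the 12 genes were higher and 2 lower with MCS at ZT14, and 1 was higher and 7 were lower at ZT2, beside the same shares of all genes (18.7% and 18.9% at ZT14, 11.5% and 11% at ZT2). The 10 mast cell genes together amounted to 1994, 1288, 2511 and 1087 CPM. The sort used no mast cell marker, and the number of mast cells in it was not measured.

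Basophils share Fcer1a, Ms4a2, Hdc and Cpa3 with mast cells. Their 6 markers summed to 18.7, 13.2, 18.7 and 14.3 CPM, led by Itga2b. Of these, Cd200r3 and Il4 were also on the mast cell lists, so the sum is not particular to basophils. Prss34, a tryptase of basophils, stood at 7.28, 4.72, 5.92 and 4.81 CPM. Mcpt8, another protease that marks basophils, was at 0.115 CPM in the control library at ZT2, 0.110 CPM in the control library at ZT14 and 0.348 CPM in the MCS library at ZT2, which is 1 to 3 reads, and at 0 in the MCS library at ZT14, where 3 reads would be 0.307 CPM.

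Markers of further cell types moved with the same libraries. The 10 neutrophil genes measured summed to 34.3, 33.9, 127 and 19.4 CPM in the order control at ZT2, control at ZT14, MCS at ZT2 and MCS at ZT14, led by Cxcr2. Ngp, Camp, Elane and Mpo were at 0 in the MCS library at ZT14, where 3 reads would be 0.307 CPM, but Camp, Elane and Mpo had at most 3 reads in the control library at that time. Retnlg was higher with MCS at both times, at 2.31, 2.20, 7.19 and 5.93 CPM (log2 ratio at ZT14 1.39, interval 0.68 to 2.24). Natural killer cell genes (6, led by Gzma) summed to 34.1, 18.8, 47.2 and 18.5 CPM, and T cell genes (8, led by Lck) to 50.2, 37.7, 56.5 and 39.3 CPM. Dendritic cell genes (8, led by Clec10a) summed to 103, 91.6, 125 and 88.1 CPM. These lists were all highest in the MCS library at ZT2, as the mast cell genes were, and their part in the result was not tested. The gate for CD11b and F4/80 and against Ly6G is meant to leave neutrophils and lymphocytes out. B cell genes nonetheless summed to 1198 to 1707 CPM over the libraries.

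Genes of the cavity's lining and stroma, which can come off with a wash, were higher in both ZT2 libraries. Mesothelial genes (8, led by Krt18) summed to 14.1, 6.15, 19.1 and 7.36 CPM, and fibroblast genes (6, led by Dcn) to 18.8, 5.16, 21.8 and 10.2 CPM. B cell genes (8, led by Cd79a) went otherwise, with 1416, 1707, 1333 and 1198 CPM. Platelet genes (4, led by Pf4) summed to 235, 182, 196 and 196 CPM, and stem and progenitor genes (6, led by Meis1) to 23.3, 18.5, 24.6 and 20.8 CPM. Pf4 alone made up most of the platelet sum, at 227, 178, 191 and 191 CPM, and Gp1ba stood at 6.93, 3.63, 3.94 and 4.09 CPM. Red blood cell genes (6, led by Hbb-b1) summed to 3.23, 1.32, 36.7 and 112 CPM, higher in both MCS libraries, and eosinophil genes (4 measured, led by Alox15, which macrophages also express) to 4073, 3763, 3674 and 5614 CPM. Of the eosinophil genes Ccr3 stood at 5.31, 1.32, 12.2 and 33.8 CPM and Siglecf at 1.27, 0.659, 5.80 and 14.1 CPM, both highest in the MCS library at ZT14. Il5ra, at 51.0, 48.9, 49.1 and 33.9 CPM, was lowest there (log2 ratio of MCS to control -0.52, interval -0.74 to -0.32). The part of these cells in the values of the mast cell genes was not tested.

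**Figure D4:**
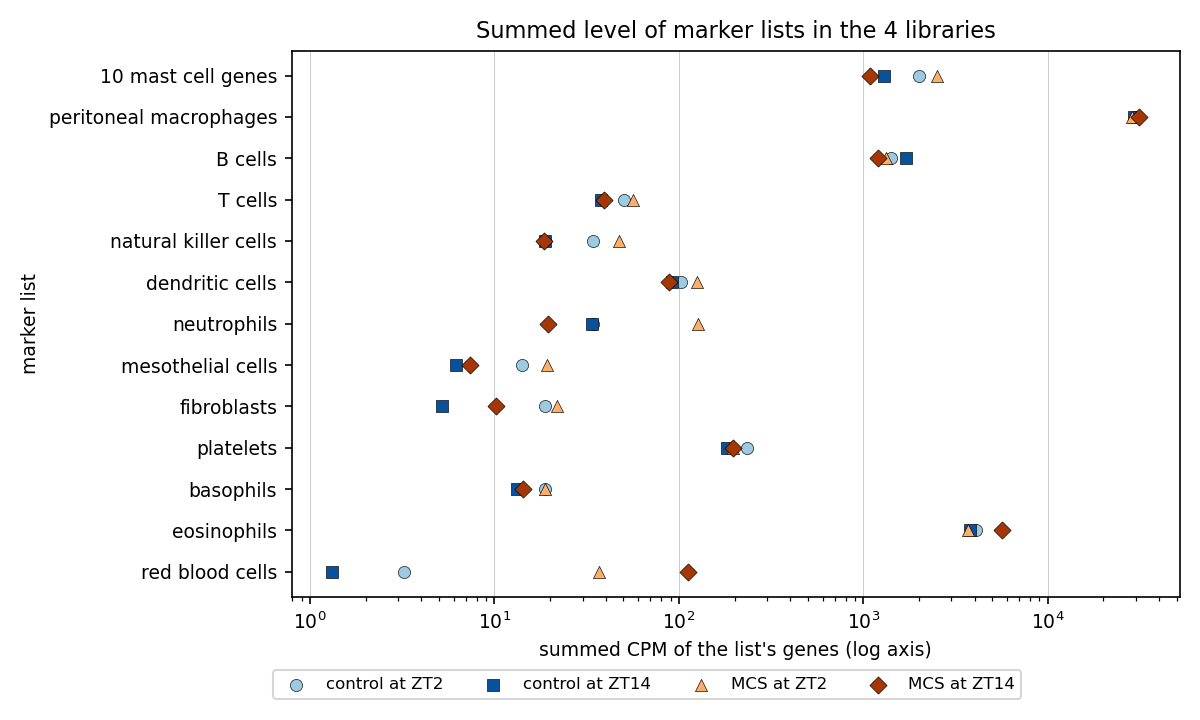
Summed CPM of the 10 mast cell genes and of 12 marker lists of other cell types, on a log axis, in the 4 libraries. The mast cell genes span 1087 to 2511 CPM and the macrophage genes 28705 to 31316 CPM, and neutrophil and natural killer cell genes are, like the mast cell genes, highest in the MCS library at ZT2.

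The genes whose pattern lay closest to the summed proteases were sought among 12501 genes outside the members, by the root mean square distance of centred log2 levels over the 4 libraries. The nearest 10 were Dst, 2700046G09Rik, Arid5b, Pydc3, Olfr920, Tcf7, Gm527, Dtx3, Abcb1a and Krt7, with distances of 0.03 to 0.08. Arid5b, the one with the most reads, stood at 94.4, 60.6, 107 and 48.4 CPM in the order control at ZT2, control at ZT14, MCS at ZT2 and MCS at ZT14, while 2700046G09Rik rested on 6 to 14 reads a library. Over only 4 libraries many genes can come close by their order alone. Of the mast cell lists, Slc18a2 ranked 17, Rab27b 23, Meis2 24, Mrgprb1 118 and Slc6a4 128. Among genes on the lists of other cell types, the nearest came behind Slc18a2, Rab27b and Meis2 but about as near as Mrgprb1 and Slc6a4. They were Gzma of the natural killer cell list at 127, Cd4 of the T cell list at 145, Prf1 of the natural killer cell list at 173 and Itga2b of the basophil list at 191. The nearest 10 genes were on none of these lists, and the cell types that express them were not examined. Among the members themselves Tpsb2 lay nearest to the sum it is part of (0.01), and Tpsab1 (0.49) and Hdc (0.37) farthest.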

How the data were processed

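The authors trimmed paired-end reads with Trimmomatic 0.38, estimated gene counts with RSEM 1.3.0 and Bowtie 2, and deposited normalized CPM from edgeR. The submitters' processing notes name build mm10. The sources used here name neither the annotation release nor an expression filter applied to the deposited values. The deposited CPM were whole multiples of 1 read for 100% of values (tolerance 0.05 read), so reads were recovered for intervals. Their columns summed to 970472 to 1017739, so a scaling factor per library is included.

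The members and lists were chosen with earlier results of these data known. Every member was described in all libraries. List genes were named by mean level or by passing the criterion, and the 10 nearest genes by distance. Fcer1g, Slc18a2, Slc6a4, Gzmb, Mrgprb1, Mrgprb2, Adgre1, Csf1r, Icam2, Fcgr1, Prg4, Cd68, Timd4, Prss34, Mcpt8, Cd200r3, Il4, Gp1ba, Retnlg and the neutrophil genes at 0 were named after their values were seen. Log2 ratios used CPM with 0.1 added, and genes with a log2 mean above 0 were counted. Ratios carry exact conditional binomial (Clopper-Pearson) 95% intervals. Fold changes of low genes are understated on this scale. The ratio and the count test (edgeR 4.0.16, R 4.3.3, Benjamini-Hochberg adjustment, at least 40 reads over the libraries) were tried on simulated data. The draws for the ratio held counting error only, as its interval assumes. Those for the count test held an MCS change larger than that of any member and equal at both times. These runs therefore do not show how the methods perform on changes like those of the members. Coordinates come from GENCODE vM21 (GRCm38) and promoters from RefSeq. Alternatives were other pseudocounts, scalings, thresholds and sums.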

Additional observations from a re-analysis of the deposited data

Results flagged for a closer look

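In 5 of the 10 genes the interval of the MCS to control ratio lay above no change at ZT2 and below it at ZT14, as it did in 4.88% of 12236 genes. The ZT14 log2 ratio minus the ZT2 log2 ratio was -0.82 for Cpa3, -0.40 for Cma1, -0.82 for Mcpt4, -0.57 for Tpsb2 and -1.11 for Gata2. With 1 library per condition this difference was not tested against variation between mice. Tpsab1 was the one member with a higher ratio at ZT14 than at ZT2, by 0.42 (counting interval 0.11 to 0.73).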

How the results depend on the processing

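No direction of a member or a sum was reversed by any alternative, and 61 of 84 alternatives for the sums, counts and shares and 200 of 202 for single genes and the nearest genes stayed the same. At ZT14 the log2 ratio of MCS to control was -0.21 for the protease sum without Cpa3, -0.35 without Tpsb2 and Tpsab1, and for the receptor sum -0.51 without Kit and -0.14 without Gata2. At ZT2 plain CPM gave 0.34 for the protease sum. For ZT2 against ZT14 in control the receptor sum gave 0.10 without Kit and 0.68 without Gata2. For ZT2 against ZT14 in MCS the protease sum gave 1.27 with plain CPM, 1.24 without Rn45s in the total, 1.14 without Cpa3 and 1.24 without the tryptases, and the receptor sum 0.99 without Kit. At a log2 ratio of 0.5, 4 members passed for MCS at ZT14 (16.7% of all genes), 2 at ZT2 (10.4%), 8 for time in control (15.3%) and 9 for time in MCS (23.6%). At a log2 ratio of 2, 0 members passed in either time comparison, where 0.377% of all genes did in control and 1.02% in MCS. The proteases' share without Hdc, chosen after seeing the data, was 92.1%, 91.4%, 91.3% and 91.4%, and the protease to receptor log2 ratio as a mean of log2 values was 3.28 in control at ZT14 and 3.48 in MCS at ZT2. By Pearson correlation 2 of the nearest 10 genes were shared with the 10 named. The edgeR count test was also added after seeing the data. It called 20 genes higher and 4 lower for MCS, against 304 at an unadjusted p under 0.05. No paired analysis was possible because the labels give no replicate numbers and each condition had 1 library. The additive edgeR fit sets MCS against control within each time, with time as a term. With 1 library per condition, the intervals leave out variation between mice, sorts and sequencing, and Fcer1a and Ms4a2, at 43 to 114 reads, are limited by depth.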
